A study of Apis mellifera with 96 samples.

Results

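The 80 genes described here fell in whole honey bee workers between day 7 and day 26, in nurses and in foragers alike, and none has a name. They carry only a LOC identifier in the count table, and the RefSeq gene table (assembly Amel_HAv3.1) lists all 80 as protein coding with no other symbol. They were chosen by their values, from 9935 gene rows of which 9537 were LOC rows. Of these, 5601 had a mean of at least 10 CPM (counts scaled to the same total in every library). Each gene received an age difference (day 26 minus day 7, mean of the roles), a role difference (forager minus nurse, mean of the days) and an interaction (role difference at day 26 minus that at day 7), all from group means of log2(CPM + 1). An age difference of -0.4 or less was reached by 157 genes. The role difference was smaller than 0.5 times the age difference in 91 of them, and the interaction was also smaller than the age difference in 88. The 80 lowest age differences were kept. Age, role and their interaction therefore chose the genes. Those values are descriptions, and nothing is read from counts of calls in these contrasts, which are printed beside the share over all tested genes. Colony labels and the variation between libraries of one group were not used in the choice, but the values of each colony enter the age difference.

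Adult worker bees typically spend their first weeks inside the hive, where nurses feed brood, and later leave it as foragers. Tissues of the young adult are still maturing at this time: the cuticle hardens, the venom gland fills its reservoir and the flight muscles gain mitochondria. The respiratory chain, whose subunits are encoded partly in the nucleus and partly in mitochondrial DNA, passes electrons to oxygen and drives ATP synthase. Because a whole bee is a mixture of all tissues, fewer cells of a type and less RNA per cell cannot be told apart in these values.

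The study took untreated wild-type workers of 6 origin colonies (107, 109, 115, 122, 127 and 137), which had been placed as young adults into shared host hives, and collected nurses and foragers at day 7 and at day 26. Each library holds 3' tag counts of whole bees, and the labels do not say how many bees a library holds or whether the libraries of a group came from separate bees, so p-values measure the spread between libraries, which may be technical. The comparisons used 92 libraries. At day 7 each role had 22 of them, and at day 26 each role had 24. A library of colony 107 foragers at day 7, with 81736 gene counts, was left out by the rule that chose the genes. Gene counts per library ran from 197805 to 2300891, so 1 read was worth between 5.06 and 0.435 CPM.

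A pair of libraries stood apart from their groups. Over all 80 genes, the mean log2(CPM + 1) of a library lay between 6.71 and 7.66 in 43 of the 44 day 7 libraries, and the remaining one, colony 122 forager day 7 replicate 3, was at 5.94 with the lowest depth of all. At day 26 the mean lay between 6.02 and 6.65 in 47 of 48 libraries, and colony 115 forager day 26 replicate 1 was at 7.54. The colony 115 library was the highest day 26 library for 49 of the 80 genes and at or above the day 7 median for 62. Its mitochondrial genes made up 9.02% of gene counts, against a day 26 median of 3.32%, and the profile of its mitochondrial genes was nearer to colony 107 than to its own. The colony 122 library was the lowest day 7 library for 46 genes and at or below the day 26 median for 61, with 1.15% of counts from mitochondrial genes against a day 7 median of 7.37%. Where a result was also computed without these libraries, both values are given.

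**Figure D1:**
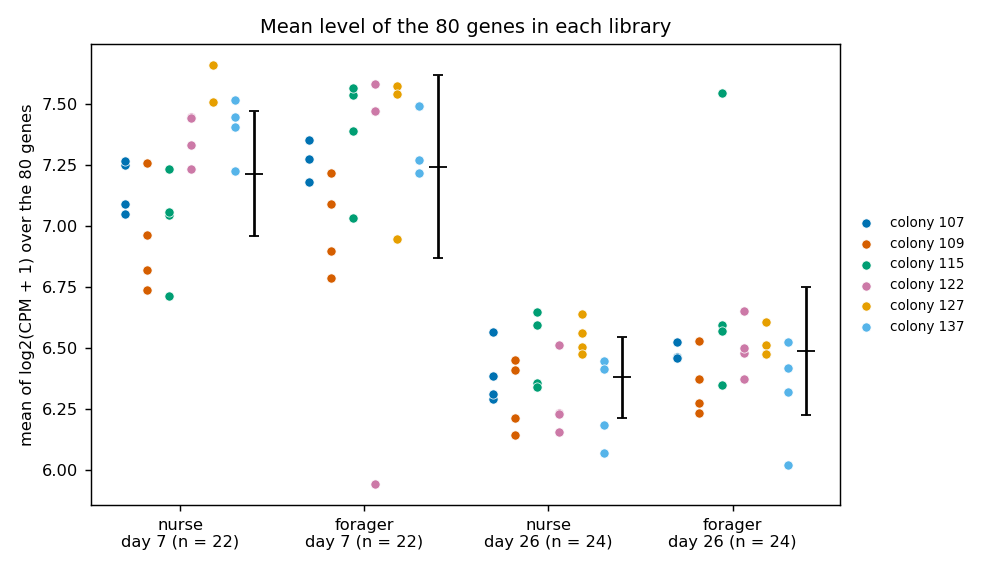
Mean of log2(CPM + 1) over the 80 genes in each of 92 libraries (points, coloured by origin colony), by role and day; black bars give the mean and SD of each group. Apart from colony 122 forager day 7 replicate 3 at 5.94 and colony 115 forager day 26 replicate 1 at 7.54, every day 7 library lies at 6.71 or above and every day 26 library at 6.65 or below.

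The age difference had a median of -0.68 (log2 scale) over the 80 genes and ran from -3.06 to -0.44, with 14 genes below -1. Among the other LOC genes with a mean of at least 10 CPM the median was 0.06. The 80 genes together supplied 56499 ± 15744 CPM (SD, n = 44) of the day 7 libraries. In the older bees their sum was 29007 ± 8908 CPM (SD, n = 48). Without the libraries that stood apart, the median age difference was -0.73. In the fit, which scales by TMM factors, the median was -0.77 and all 80 genes were called lower at day 26 (12.4% of all tested genes were), a count that the choice itself fixes. Just inside the limit of 80 were LOC724827 (-0.45), LOC100576736 (-0.44) and LOC411597 (-0.44), and just outside were LOC102656224 (-0.44), LOC411488 (-0.43) and LOC727578 (-0.42).

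LOC102654146 had the lowest age difference, -3.06. Its level ran from 0 to 203 CPM with a median of 49.8 CPM over the 44 day 7 libraries, and from 0 to 88.2 CPM with a median of 4.10 CPM over the 48 day 26 libraries. The day 26 maximum belonged to the colony 115 library that stood apart, and the next highest day 26 value was 11.7 CPM, so apart from it the ranges met only at the bottom of the day 7 range. LOC406145 (-3.01) ran from 0 to 150 CPM with a median of 47.6 CPM at day 7, and from 0 to 44.9 CPM with a median of 3.50 CPM at day 26. Reads of LOC406145 were missing from 12 of 48 day 26 libraries and 1 of 44 day 7 libraries. A count of 0 allows up to 3 counts, which is between 1.30 and 15.2 CPM at these depths and covers counting error only. LOC727165 (-2.31) had a median of 121 CPM at day 7 (15.2 to 288 CPM) and of 22.3 CPM at day 26 (0.65 to 223 CPM), where the next value below the highest was 92.2 CPM.

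The next genes in this order fell by smaller steps. LOC113218735 (-1.49) went from a median of 9919 CPM at day 7 to 3140 CPM at day 26, with a spread between colonies that is described separately. LOC552217 (-1.49) had medians of 56.4 CPM (10.1 to 147 CPM) and 17.5 CPM (5.49 to 98.3 CPM). LOC410021 (-1.21) was scarce throughout, with medians of 20.6 and 8.49 CPM. It was also the only one of the 80 with an interaction past an adjusted p of 0.05 (edgeR quasi-likelihood test, adjusted by Benjamini-Hochberg over 6753 genes), a contrast that the choice had used and in which 0.829% of all tested genes passed. In nurses its median went from 26.4 to 7.73 CPM, and in foragers from 17.5 to 9.19 CPM. LOC552682 (-1.19), LOC552610 (-1.16), LOC551541 (-1.06) and LOC726747 (-1.04) complete the 10 lowest.

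By level, 8 of the genes had a mean of 1000 CPM or more, 32 lay from 100 to under 1000 CPM and 40 below 100 CPM. LOC726042 (mean 12109 CPM) held 16415 ± 4560 CPM (SD, n = 44) at day 7, from 8184 to 26447, and 8161 ± 3025 CPM (SD, n = 48) at day 26, from 2560 to 25357. Its second highest day 26 library stood at 10496 CPM, so the overlap at the top came from the colony 115 library. LOC551541 went from a median of 5133 CPM (2270 to 10065 CPM) to 2446 CPM (1348 to 7231 CPM). LOC552610 went from 2128 CPM (601.6 to 4335 CPM) to 876 CPM (587 to 3314 CPM). In both genes the extremes of the overlap included a library that stood apart, and without both such libraries LOC552610 ran from 921 CPM upward at day 7 and up to 1261 CPM at day 26. LOC409930 changed less, from a median of 1895 to 1271 CPM. LOC113218630 went from 1732 to 1001 CPM, LOC551757 from 1612 to 788 CPM, LOC551861 from 1499 to 863 CPM, LOC412396 from 1045 to 648 CPM and LOC102654955 from 1123 to 555 CPM. No gene of the 80 had separate day 7 and day 26 ranges over both roles, with or without those libraries. Age chose the genes and no share over all tested genes was computed, so nothing is read from this count.

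The fall was present in each role, which the choice fixed, and in nearly each colony, where the choice required it only on average. Its median was -0.71 in nurses and -0.65 in foragers. The role difference depended on the scaling: it was above 0 in 62 of the 80 genes on the log2(CPM + 1) scale and in 17 in the fit with TMM factors. Its median over the 80 genes was 0.12 and -0.09 on these scales, and that over all tested genes was 0.22 and 0.01. In the fit 15 of the 80 were called and each was lower in foragers, in a contrast that the choice had used and where 14.8% of all tested genes were called lower and 30.1% in either direction. The lowest role difference, -1.25, belonged to LOC406145, whose day 26 median was 6.54 CPM in nurses and 1.31 CPM in foragers. By colony, the median age difference was -1.01 in colony 137, -0.88 in 127, -0.76 in 122, -0.69 in 107, -0.53 in 115 and -0.52 in 109. It was below 0 in all 6 colonies for 75 genes and in 5 colonies for the other 5, namely LOC107965564, LOC724321, LOC100576163, LOC550918 and LOC102655879. The colony values make up the age difference that chose the genes, so these counts are descriptions. Colony 137 had the largest fall of the 6 in 45 genes, while colony 115 had the smallest in 32 and colony 109 in 31. Without the libraries that stood apart, the median was -0.95 in colony 122 and -0.63 in colony 115, the largest fall was in colony 137 for 34 genes and in 122 for 22, and the smallest was in colony 109 for 42 and in 115 for 19.

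**Figure D2:**
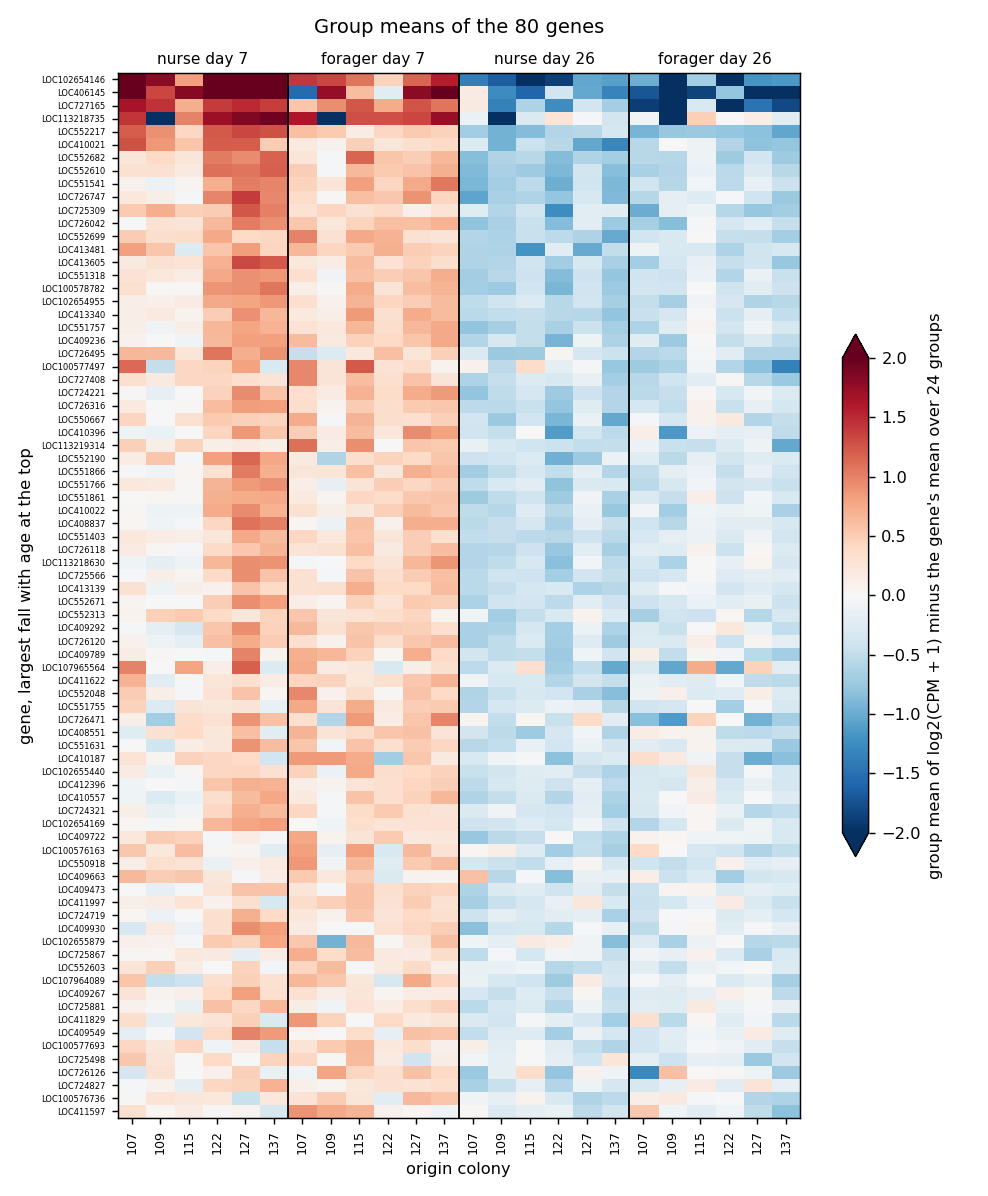
Heat map of the 80 genes (one line each, largest fall with age at the top) in the 24 groups of role, day and origin colony; colour is the group mean of log2(CPM + 1) minus the mean of that gene over the 24 groups, cut at -2 and 2. Day 7 groups are mostly red and day 26 groups mostly blue, nurses of colonies 122, 127 and 137 are the reddest at day 7, and LOC113218735 stays blue in colony 109 at both days.

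To see which of these genes varied together within the labelled groups, each gene was expressed as its deviation from its group mean. Deviations were then correlated over libraries. A library with a wrong label would carry age, role or colony differences into its deviations, which was not tested. Points of such a correlation share their library and its depth, so the values are descriptions. The median Pearson r over 3160 pairs of the 80 genes was 0.25 (92 libraries), and 0.12 without the libraries that stood apart (90 libraries). Pairs of the 5521 other LOC genes had medians of 0.11 in both sets. The pairs were uneven: 26.6% had r above 0.5, or 18.9% without those libraries, against 1.28% and 1.39% of pairs of other LOC genes.

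Most of the strong correlations joined one block of genes, which moved with the nuclear respiratory chain. Each gene was matched to the named gene it followed most closely within groups, from 61 named genes of 12 tissues and processes, of which 56 were found in the table. Other genes were not matched in this way, so how common such matches are among them is not known. The list of nuclear respiratory chain genes held Uqcr11 (a complex III subunit), Cox6b1 and Cox6c (complex IV subunits) and ATP5G2 (a subunit of the ATP synthase ring). A gene of this list was the nearest for 38 of the 80 genes, with a median r of 0.82, and for 35 genes without the libraries that stood apart, with a median r of 0.80. Cox6b1 alone was nearest for 32 genes, or 27 without them. LOC552610 (r = 0.90, or 0.87 without them), LOC551541 (0.90, 0.87), LOC551757 (0.90, 0.86) and LOC551861 (0.89, 0.85) were among those that followed it. Pairs within the block correlated with a median r of 0.80 over the 44 day 7 libraries and 0.52 over the 48 day 26 libraries, or 0.78 and 0.37 without the libraries that stood apart. The block was formed from correlations in these same libraries. High values among its pairs therefore follow in part from the grouping and are a description.

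**Figure D3:**
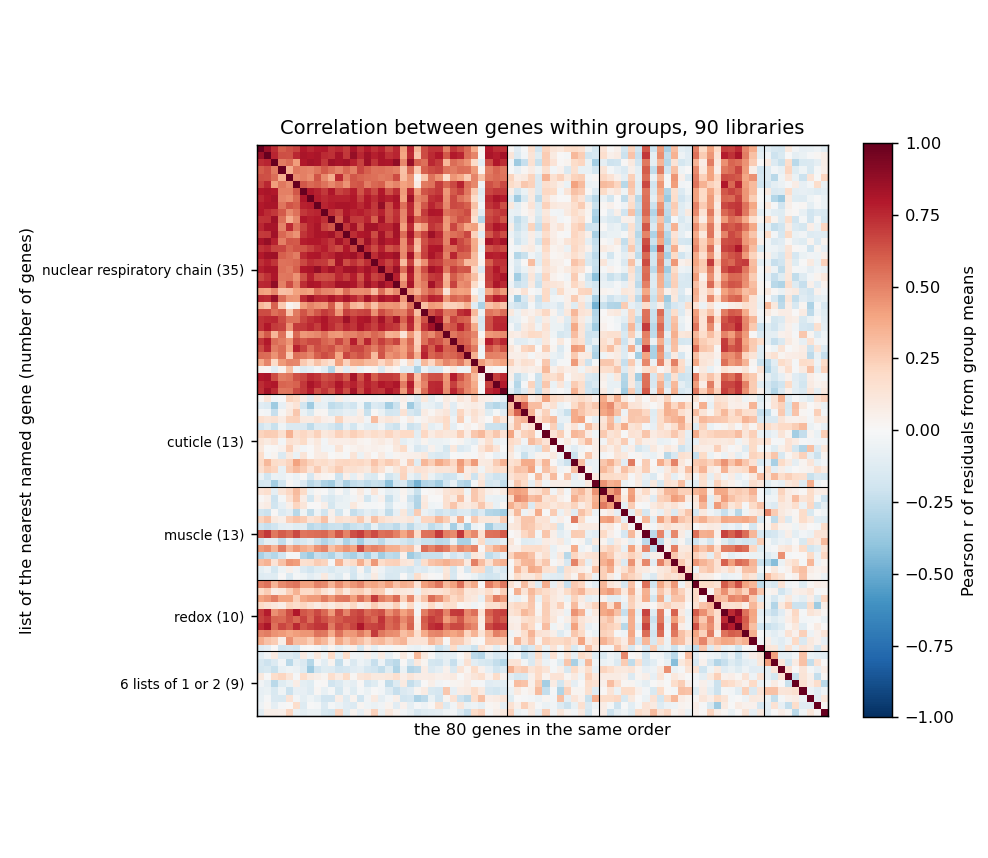
Pearson correlation between the 80 genes of their deviations from group means over 90 libraries (both libraries that stood apart left out); genes are ordered by the list of their nearest named gene, with the number of genes in brackets. The block of 35 genes nearest to the nuclear respiratory chain list is red within itself and with several of the 10 genes nearest to the redox list, while the 13 cuticle and 13 muscle genes are pale among themselves.

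A smaller number followed Sod2, the superoxide dismutase of mitochondria. LOC551766 had r = 0.81 with it in both sets of libraries, LOC552671 0.79 and 0.76, and LOC725566 0.75 and 0.71. The same LOC551766 and LOC552671, with LOC552610 and LOC413605, had the highest correlations with the mean of the other 79 genes, at 0.85, 0.87, 0.87 and 0.84. Without the libraries that stood apart, the highest were LOC551766 (0.83), LOC552671 (0.79), LOC725566 (0.77) and LOC552610 (0.76). Muscle genes were nearest for 12 genes (13 without the libraries that stood apart) and cuticle genes for 12 (13), with median r of 0.46 (0.45) and 0.41 (0.42). These are weaker matches than those of the respiratory block.

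Of the 5 genes with the lowest age differences, 4 were nearest to a venom or cuticle gene. LOC406145 followed Melt, which encodes melittin, the main peptide of bee venom (r = 0.82, or 0.78 without the libraries that stood apart). LOC727165 followed Apd-2 (0.82, 0.78), LOC102654146 followed Apd-1 (0.73, 0.65) and LOC552217 followed Apd-3 (0.69, 0.58), which encode apidermins, structural proteins of the bee cuticle. LOC113218735 was nearest to the mitochondrial gene COX1 (0.51, 0.25). At the other end, LOC100576736 (-0.17), LOC409722 (-0.02), LOC552313 (0.004) and LOC107965564 (0.02) had the lowest correlations with the mean of the other genes. Without the libraries that stood apart, the lowest were LOC107965564 (-0.20), LOC100576736 (-0.13), LOC113219314 (-0.07) and LOC409663 (-0.05).

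The named genes themselves also changed between day 7 and day 26, in a test where 26.1% of the 6753 tested genes passed an adjusted p of 0.05 (edgeR quasi-likelihood test, Benjamini-Hochberg). All 4 nuclear respiratory chain genes were lower at day 26, as were 7 of 8 mitochondrially encoded genes, with ND1 not passing. All 4 venom genes were lower, with a median log2 fold change of -3.31. Of 7 tested cuticle genes 6 were lower, Apd-1 by a log2 fold change of -6.40 ± 0.32 (SE), and CPR14 was higher. Of 7 muscle genes 5 were lower, and TpnCIIIa and TpnCIIIb were higher. Among 4 redox genes Sod2 was lower at -0.74 ± 0.11 (SE), Cat and MsrA were higher and Sod1 did not pass. The 3 immune, 3 photoreceptor and 3 sugar processing genes were all higher. Among nerve genes GluCl was higher and the other 3 did not pass, among fat body genes Hex70a was lower and the other 3 did not pass, and none of the 3 brood food gland genes passed. Mitochondrial genes made up 6.69% ± 2.47 of gene counts in the day 7 libraries (SD, n = 44) and 3.32% ± 1.28 in those of day 26 (SD, n = 48). The part of tissue makeup in the falls of the 80 genes was not tested.

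In the order of protein-coding genes of the RefSeq table the 80 genes were spread over 15 linkage groups, with at most 9 on one. No 2 of them were next to each other. The number of such pairs in other sets of 80 genes was not computed, so nothing is read from this count.

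Many of the genes differed among colonies of origin at day 7. Colony labels were not used in the choice, but the colony values make up the age difference that chose the genes. A gene that is high at day 7 in some colonies can reach the limit through them. The part of this in the counts below was not tested. In the test of any difference among the 6 colonies at day 7, 37 of the 80 genes (46.2%) passed, against 7.29% of all tested genes and 14.9% of other LOC genes with a mean of 100 CPM or more. At day 26, 5 of the 80 passed (6.25%), against 6.75% of all tested genes and 14.8% of those other LOC genes. Over both days 38 of the 80 passed (47.5%), against 17.8% of all tested genes and 32% of those other LOC genes. For comparison, 53 LOC genes that rise with age under the mirrored rule passed in 18.9% at day 7 and 17% at day 26. Over both days 39.6% of these 53 passed. Each test was an edgeR quasi-likelihood F test with Benjamini-Hochberg adjustment over 6753 genes.

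The day 7 count varied with the libraries that were kept. It was 3 without replicate 3 and 6 without replicate 2, where 1.46% and 1.47% of all tested genes passed, 42 without replicate 1, 10 without colony 137 and 16 when second libraries of a number were summed with the first, and 19 without 29 libraries whose mitochondrial profile lay nearer to another colony, where only colonies 109, 115 and 127 still had every group and were compared. Without both libraries that stood apart it was 44. The count over both days was 16 without colony 107, 19 without colony 137, 17 with second libraries summed, 7 without replicate 2 and 12 without replicate 3, the last pair with 4.21% and 5.6% of all tested genes passing. The day 26 count was between 1 and 11, the lowest without colony 107 or without the 29 libraries and the highest by DESeq2.

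**Figure D4:**
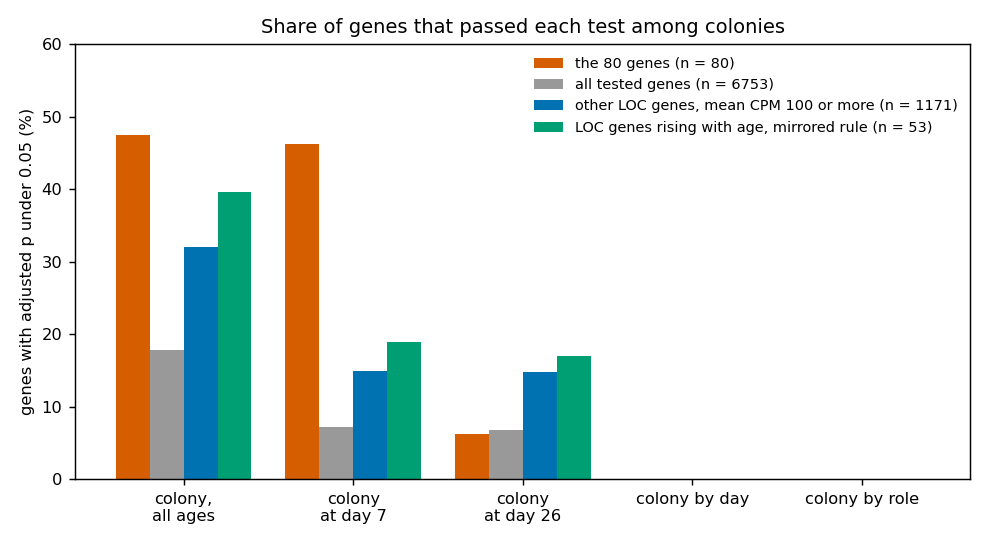
Percent of genes with an adjusted p under 0.05 in 5 tests among origin colonies (edgeR quasi-likelihood), for the 80 genes, all 6753 tested genes, 1171 other LOC genes with a mean of 100 CPM or more and 53 LOC genes that rise with age. The 80 genes stand at 46.2% at day 7 and 6.25% at day 26, while the other sets have similar shares at both days; no bar is visible for the last tests because at most 3 genes passed.

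The lowest colony was shared by most of the called genes. Among the 37 called at day 7, the lowest colony was 109 in 32 genes, and the highest was 137 in 19 and 127 in 18. Without the libraries that stood apart, 109 was again lowest in 32, and the highest was 127 in 15, 137 in 12 and 122 in 10. The mean of all 80 genes at day 7 was 6.97 ± 0.20 (log2 scale, SD, n = 8) in colony 109, 7.20 ± 0.29 (n = 8) in 115, 7.21 ± 0.11 (n = 7) in 107, 7.24 ± 0.54 (n = 8) in 122, 7.38 ± 0.13 (n = 8) in 137 and 7.44 ± 0.29 (n = 5) in 127. Neighbours in this order differed by less than the SD of at least one of the pair, and without its library that stood apart colony 122 was at 7.42 ± 0.11 (n = 7), above colony 137. In nurses the 4 libraries of colony 109 (6.74 to 7.26) did not overlap the 2 of colony 127 (7.51 and 7.66, both of replicate 1). In foragers the same colonies overlapped, at 6.78 to 7.22 against 6.94 to 7.57. At day 26 the order differed: colony 137 was lowest at 6.30 ± 0.19 and colony 115 highest at 6.62 ± 0.39 (each n = 8), the latter with the library that stood apart. Without it colony 115 was at 6.49 ± 0.14 (n = 7), and colony 127 was highest at 6.53 ± 0.06 (n = 8).

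Library measures also differed between colonies at day 7. Mitochondrial genes made up 3.15% of gene counts in colony 115 and between 6.61% and 8.48% in the others, with the highest share in colony 137. Reads without alignment were 62.8% in colony 137 and between 65.8% and 68.8% in the others. Mean gene counts per library were 1111500 in colony 109 and between 1251400 and 1606400 in the others. The part of these measures in the colony differences was not tested.

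The genes called at day 7 were mainly those of the respiratory block. Of the 38 genes nearest to a nuclear respiratory chain gene, 31 were called at day 7 (81.6%) and 2 at day 26 (5.26%). Of the other 42, 6 were called at day 7 (14.3%) and 3 at day 26 (7.14%). Over all tested genes the shares were 7.29% at day 7 and 6.75% at day 26. With the block found without the libraries that stood apart, 30 of its 35 genes and 7 of the other 45 were called at day 7. At day 26 these counts were 2 and 3. The block was defined by variation within groups, which holds no mean of a labelled colony, but its genes also have higher counts, at a median of 349 CPM.

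LOC113218630, a member of the block, had its lowest medians at day 7 in colony 109 (1167 CPM, from 751 to 2103) and colony 107 (1251 CPM, from 888 to 1677), and its highest in colony 137 (2596 CPM, from 1825 to 2920) and 127 (2522 CPM, from 1180 to 3347). Colonies 107 and 137 did not overlap. Its adjusted p at day 7 was 1.94e-06 and lay between 1.77e-09 and 0.032 over 20 alternative settings. LOC409549 had medians from 128 CPM in colony 109 to 272 CPM in colony 127 (adjusted p 1.29e-05, between 9.48e-09 and 0.0284), and LOC410557 from 457 CPM in colony 109 to 800.4 CPM in colony 137 (adjusted p 6.47e-05, between 1.34e-06 and 0.0961). The call of LOC410557 was lost without replicate 3 (0.0664) and without colony 137 (0.0961).

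LOC409930 differed in both ages. At day 7 its median was 1431 CPM in colony 115 and 1601 CPM in colony 107, against 2538 CPM in colony 137 and 2801 CPM in colony 127 (adjusted p 1.77e-05, between 8.57e-08 and 0.0986, the last without replicate 3). At day 26 colony 107 was lowest with 965 CPM (743 to 1239) and colony 127 highest with 1543 CPM (1251 to 1785), and these groups did not overlap (adjusted p 0.0314, between 0.00838 and 0.728). For LOC409663 colony 107 had the highest median at day 26, at 283 CPM (136 to 361) against 117 CPM (89.9 to 167) in colony 122, with an adjusted p of 0.000201 that lay between 3.25e-06 and 0.616. For LOC726126 colony 107 was the lowest at day 26, at 18.6 CPM against 42.6 CPM in colony 109 (adjusted p 0.00607, between 0.000916 and 0.557), and for LOC724827 it was the lowest at 214 CPM against 314 CPM in colony 127 (adjusted p 0.0108, between 0.00504 and 0.201). These 4 calls at day 26 were each lost in some of the 20 settings, LOC409930 in 7, LOC409663 in 2, LOC726126 in 4 and LOC724827 in 7. Without colony 107 none of them held, with adjusted p of 0.446, 0.0623, 0.374 and 0.0891.

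The clearest colony difference was that of LOC113218735, and it was of another kind. At day 7 it stood at 2644 to 15703 CPM in the 36 libraries of 5 colonies, with a median of 10578 CPM. In the 8 libraries of colony 109 the median was 349 CPM, and 7 of them lay between 192 and 590 CPM. At day 26 it stood at 1902 to 14222 CPM in 40 libraries of the 5 colonies, and at 88.5 to 340 CPM in the 8 of colony 109. The groups of libraries did not overlap at either day except for 1 library, colony 109 forager day 7 replicate 3, at 5198 CPM. By colony means of log2(CPM + 1), the other colonies were 16.4 to 26.7 times colony 109 at day 7 and 20.2 to 27.0 times at day 26. The day 7 mean of colony 109 includes the library at 5198 CPM, which raises it, and the folds were not computed without it. The adjusted p was 8.92e-11 at day 7 and 1.81e-13 at day 26 (edgeR quasi-likelihood F test), and 1.38e-19 over both.

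The age difference of LOC113218735 in colony 109 was -1.73 with the library at 5198 CPM included, and was not computed without it. The rest of that forager day 7 group lay at 241 to 419 CPM. In colony 109 nurses, which do not hold that library, the group mean of log2(CPM + 1) was 8.29 at day 7 and 6.75 at day 26. In the other colonies the age difference ran from -2.13 to -1.05 (-2.13 to -1.31 without the libraries that stood apart). Without colony 109, the adjusted p among the remaining colonies was 0.587 over both days, 0.0741 at day 7 and 0.612 at day 26. The exceptional colony 109 library also had a mitochondrial profile nearer to colony 107 than to its own, one of 7 libraries with such a departure of more than 1.5 times in distance. The part of that library's origin in its value was not tested.

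**Figure D5:**
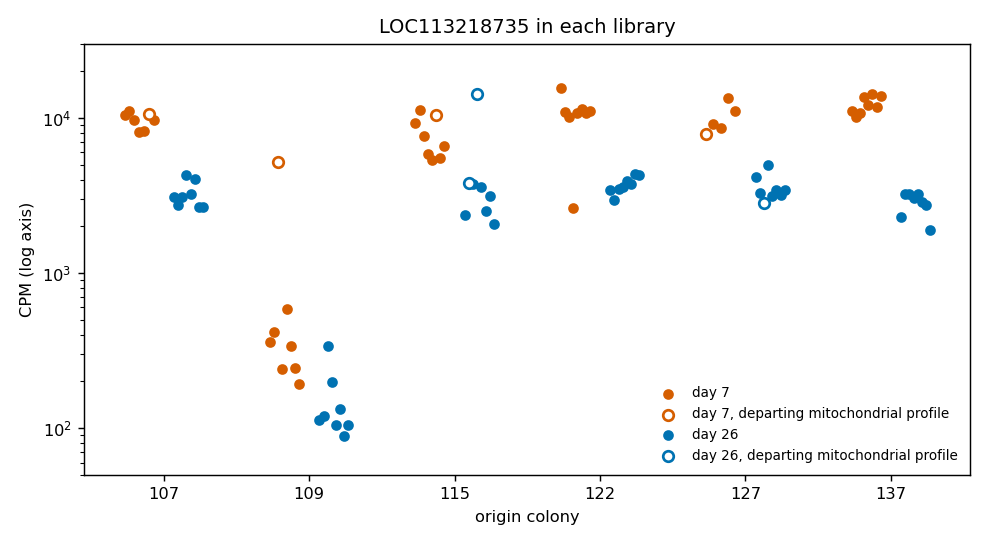
CPM of LOC113218735 (log axis) in each of 92 libraries, by origin colony; orange points are day 7, blue points day 26, and open circles mark the 7 libraries whose mitochondrial profile departed from their colony. Colony 109 lies at 88.5 to 590 CPM except for an open circle at 5198 CPM, and the other colonies lie at 1902 CPM or above.

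Whether the size of the fall itself differed among colonies was tested as an interaction of colony and day. No gene of the 80 passed (edgeR quasi-likelihood, Benjamini-Hochberg), against 0.0444% of all tested genes. At an unadjusted p under 0.05 there were 41 of the 80, against 704 of 6753 tested genes. DESeq2's likelihood ratio test called 8 of the 80, and over the 20 settings 0 to 45 of all tested genes were called. The smallest p belonged to LOC410557, with an adjusted p of 0.0743 that lay between 0.00872 and 0.776 over the settings and was under 0.05 in 5 of 20. Its age difference was -1.17 in colony 137 and -0.09 in colony 109. LOC724827 (adjusted p 0.0823), LOC113218630 (0.0877), LOC412396 (0.095) and LOC551861 (0.0965) came next. The role difference did not pass among colonies for any of the 80, nor for any of all tested genes (0%), by edgeR or, for the 80, by DESeq2, with 18 of the 80 and 512 of 6753 at an unadjusted p under 0.05.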

How the data were processed

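The deposited table holds raw gene counts per library, made by the authors from TagSeq reads. The submitters' processing notes name FastQC, HISAT2, SAMtools and DESeq2; no source used here gives the genome build or the counting tool. Of 96 labelled samples, 93 had a column and 92 entered the analysis; the other labelled samples were not analysed here. Entries for reads assigned to no gene stayed out of library sizes, and reads without alignment were 60.5% to 80.0% per library (of all reads in the table).

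CPM was computed over gene rows. Tests used edgeR 4.0.16 (R 4.3.3; quasi-likelihood, robust) with 1 mean for each of 24 groups of colony, role and day, TMM factors and filterByExpr (minimum count 10), leaving 6753 genes, all 80 among them, and 68 residual degrees of freedom. P-values were adjusted by Benjamini-Hochberg, threshold 0.05. DESeq2 1.42.0 was an alternative. The fit was checked on simulated counts. The members and lists were chosen with earlier results of these data known. Named genes are the 10 lowest age differences, the 10 highest mean CPM, 3 on each side of the limit, up to 5 with the smallest p per colony test and the 4 highest and lowest correlations with the other genes. Library pairs within groups were compared by chi-square per gene (lowest 1.52, median 15.7 for different numbers). Pairs of the same number had a lowest value of 1.90 and a median of 14.35. No pair reached sampling noise, so all were kept, but this cannot show that the libraries came from separate bees. Alternatives covered scaling, filter, tool, replicate numbers, colonies, second libraries and libraries that stood apart. Protein and promoter sequences were not used here.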

Additional observations from a re-analysis of the deposited data

Results flagged for a closer look

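Within groups of 4 to 10 libraries, a value was taken up here when its gap to the nearest other exceeded Dixon's limit, which chance alone exceeds in about 1 of 20 groups; 51 groups were looked at. The mean log2(CPM + 1) of the 80 genes in colony 122 forager day 7 replicate 3 was 5.94, with the next library of its group at 7.47. In colony 107 forager day 26 replicate 3 it was 6.52, only just above the next at 6.46, in a group of narrow spread. For LOC113218735 at day 7, colony 109 forager day 7 replicate 3 had 5198 CPM against at most 590 CPM in the rest of its colony, and colony 122 forager day 7 replicate 3 had 2644 CPM against at least 10163 CPM in the rest of its own. In colony 127 forager day 7 replicate 1, LOC409549 was at 136 CPM with the next day 7 library of the colony at 262 CPM, and LOC409930 at 1093 CPM with the next at 2589 CPM. This library is also one of the 7 with a departing mitochondrial profile.

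The fall of LOC410021 with age was smaller in foragers than in nurses, with an interaction of 1.03 ± 0.28 (log2, SE). The choice of the genes had used this contrast, so the value is a description with no test.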

How the results depend on the processing

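Of the 80 genes, 72 to 80 were called at day 26 against day 7 over the 20 settings. The count of all tested genes, 1764, was 800 without the 29 libraries whose mitochondrial profile lay nearer to another colony, and 822 to 1363 leaving out one replicate number. Membership shared 67 to 79 of 80 genes over 15 alternatives, and 47 genes were kept in every one. The causes of the shifts were not tested.

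Genes of the 80 called among colonies over both days (38; all tested 1203) were 16 (596) without colony 107, 19 (674) without colony 137 and 17 (659) with second libraries summed. Without the 29 libraries, 326 of all tested genes were called. Leaving out one replicate number gave 7 to 37 of the 80 and 281 to 853 of all tested.

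At day 7 (37; 492) they were 10 (182) without colony 137, 16 (204) with second libraries summed and 19 (119) without the 29 libraries; without colony 107 all tested genes gave 255. Leaving out one replicate number gave 3 to 42 and 98 to 489. At day 26 (5; 456) they were 11 by DESeq2, 1 (147) without colony 107, 8 without colony 115, 3 (146) with second libraries summed, 1 (72) without the 29 and 9 without the 7 departing libraries; without colony 137 all tested genes gave 261, and leaving out one replicate number gave 2 to 3 and 57 to 256.

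For the fall differing among colonies (0 of 80) they were 8 by DESeq2, 1 without colony 127, 7 without colony 122 forager day 7 replicate 3 and 1 without both libraries that stood apart; leaving out one replicate number gave 0 to 6. All tested genes gave 0 to 45. The median correlation of the 80 genes (0.25) was 0.29 with TMM scaling, 0.12 without both libraries that stood apart, and 0.24 to 0.30 leaving out one replicate number.

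With the replicate block, 32 of the 80 were called among colonies over both days and 36 at day 7. Pooled over all groups, libraries of different groups with the same number did not deviate together (median r 0.0001, against 0.003 for other numbers). A pooled median cannot show a pairing within a single colony or day, which was not tested. Without replicate 1, colony 127 left the contrasts, since it then lacked a nurse day 7 group; without the 29 libraries colonies 107, 122 and 137 left them, each for want of 1 group. The settings leaving out the 7 departing libraries or those that stood apart were chosen after seeing the data. Depth was not varied here.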

Other observations

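LOC113218735 in the 7 libraries with a departing mitochondrial profile was at 10645 CPM in colony 107 nurse day 7 replicate 3, 5198 CPM in colony 109 forager day 7 replicate 3, 10512 CPM in the second library (#2) of replicate 2 of colony 115 nurses at day 7 and 7880 CPM in colony 127 forager day 7 replicate 1. At day 26 it was at 3784 CPM in the second library of replicate 2 of colony 115 foragers, 14222 CPM in colony 115 forager replicate 1 and 2811 CPM in colony 127 forager replicate 2. The mean of the 80 genes in the same libraries was 7.25, 6.78, 7.04 and 6.94 (log2 scale) at day 7, and 6.35, 7.54 and 6.51 at day 26.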
